A study of Mus musculus with 12 samples.

Results

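Sorted bone marrow hematopoietic stem and progenitor cells (HSPCs) were compared 7 days after intracerebral hemorrhage (ICH) between wild-type mice that had eaten a high-salt diet (HSD) before the hemorrhage and wild-type mice kept on a normal diet (ND). The comparison covered all libraries labelled with a diet and an intracerebral blood injection at day 7, which were 3 ND ICH and 3 HSD ICH libraries, 6 of the 12 libraries of the series, and the deposited CPM values, which scale the reads of a gene to the size of its library, of all 20792 listed genes. Of these, 20079 genes were tested, since 3 or more libraries held 10 or more reads of them, 713 were not, and 9664 exceeded 10 CPM in at least 3 of the 6. The study used males and describes, for its ICH regimen, mice that received high-sodium chow and salted drinking water, or normal chow and tap water, from 6 weeks of age for 8 weeks, then an injection of their own blood into the brain, and a return of all mice to ND. Ages and diet lengths of the sequenced mice are not given separately, and on this regimen both groups share the blood injection and ND chow in the last 7 days and differ in the diet before it. The sorting gate was Lin-CD127-c-kit+Sca-1+. The study describes pools of 3 animals for the libraries without ICH, and the number of animals behind an ICH library is not given in the sources used here, so p values measure only the spread between these libraries.

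The Lin-c-kit+Sca-1+ compartment holds hematopoietic stem cells and the multipotent progenitors that they feed. Stem cells are mostly quiescent, progenitors divide, and those biased to the granulocyte-monocyte lineage transcribe primary (azurophil) granule proteases early, well before a neutrophil or monocyte is recognisable. Secreted and granule proteins fold in the endoplasmic reticulum (ER), whose chaperones are among the genes of the unfolded protein response. Since RNA was measured in bulk, fewer cells of a type and less RNA per cell cannot be told apart.

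The ND ICH libraries held 12367859 to 15058511 reads in listed genes, and HSD ICH libraries held 12957023, 12286357 and 27491973. HSD ICH replicate 3, the deepest library of all, stood apart. On the first principal component, which carried 52.4% of the variance, it scored 64.0, against 7.15 and -1.44 for HSD ICH replicates 2 and 1 and -24.3 to -21.5 for ND ICH. Results are therefore given with and without it. Thinning its reads to the depth of the others gave 3033 genes with an unadjusted p under 0.05, against 3134 at full depth. The second component carried 16.9% of the variance. There ND ICH replicate 2 stood apart, with a score of 32.5 against -23.0 to 10.8 for the other libraries. Values of single libraries follow in the order of replicates 1, 2 and 3, ND ICH before HSD ICH. Of the genes that define the gate, Kit, which encodes c-kit, had 466, 369 and 398 CPM in ND ICH and 422, 417 and 329 CPM in HSD ICH, while Ly6a, which encodes Sca-1, had 3.68, 4.18 and 6.53 against 4.37, 3.47 and 2.42 CPM. Both genes overlapped between groups. Lineage genes were not absent, since Itgam (CD11b) had 34.8, 40.0 and 26.4 CPM in ND ICH and 25.3, 26.4 and 32.7 CPM in HSD ICH, and Il7r (CD127) 4.01, 5.85 and 2.86 against 4.23, 1.70 and 0.795 CPM. Of 9 sort marker genes tested, 1 was higher and 2 were lower at an unadjusted p under 0.05 by limma, without overlap between groups. Fcgr3 (CD16) was higher, with 15.1, 11.2 and 10.1 against 21.4, 16.1 and 69.9 CPM, and HSD ICH replicate 3 was its highest library. H2-Aa (MHC class II), with 2.70, 5.61 and 3.01 against 2.12, 1.18 and 0.686 CPM, and Klrb1c (NK1.1), with 1.64, 2.69 and 1.84 against 1.37, 0.591 and 0.686 CPM, were lower, and all 3 were also called without HSD ICH replicate 3.

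No gene passed an adjusted p under 0.05 by limma, and the smallest adjusted p was 0.114. At an unadjusted p under 0.05, limma called 1089 genes higher in HSD ICH, 5.42% of those tested, and 2045 lower, 10.2%. edgeR's quasi-likelihood test on recovered reads also gave 0 genes at an adjusted p under 0.05 and 3241 unadjusted, DESeq2 gave 98 and 2557, and limma with all 12 libraries in 1 fit gave 319 and 4288. The 319 were 80 higher (0.398%) and 239 lower (1.19%), and 78 of them were among the 98 of DESeq2. In the 12-library fit the variance of a gene is taken over all 12 libraries. For 80 of the 239 lower genes, no library without ICH held a read. Such constant values add no spread and can lower the p value of these genes. In the text that follows, a gene is called higher or lower at an unadjusted p under 0.05 by limma unless another test is named. The percentages given for all genes are the background against which counts of a gene list are read. This background shifts with gene level, and the shares by level are given below. The split of the calls moved with the scaling. CPM over protein-coding nuclear genes alone gave 622 higher and 2517 lower genes, so that 19.8% of calls were higher against 34.7%, and DESeq2 with its own size factors gave 1265 and 1292 (49.5%). At the threshold of the study, an unadjusted p under 0.05 with a log2 difference of at least 1 in size, 56 genes were higher (0.279%) and 159 lower (0.792%). The study used this threshold only on genes above 10 CPM in at least 3 samples, whereas here limma was used on all genes tested. These counts are therefore not the measure of the study, and those above 10 CPM are given below. Without HSD ICH replicate 3, 760 genes were higher (3.79%) and 1267 lower (6.31%), and 9 and 103 passed the study threshold. In 2015 genes (10%) each HSD ICH library was above each ND ICH library, and in 2677 (13.3%) each was below.

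The direction of the calls turned with the level of the gene. Of 2822 genes under 1 CPM, 7 were higher (0.248%) and 573 lower (20.3%). Between 1 and 10 CPM, 161 of 7651 genes were higher (2.10%) and 1093 lower (14.3%). Between 10 and 100 CPM, by contrast, 773 of 8198 were higher (9.43%) and 333 lower (4.06%). Above 100 CPM, 148 of 1408 were higher (10.5%) and 46 lower (3.27%). A list of low or of abundant genes is therefore read beside the shares of its level. Restricted to the 9664 genes above 10 CPM, a fit of their own called 872 higher (9.02%) and 357 lower (3.69%), and without HSD ICH replicate 3 it called 565 higher (5.85%) and 274 lower (2.84%). At the study threshold this fit gave 28 higher and 33 lower genes with all 6 libraries, and 2 and 19 without HSD ICH replicate 3. Of the 2045 lower genes, 162 had 10 or more reads in the 3 ND ICH libraries and in no HSD ICH library, so they were tested only through the group where they are high, as were 3 of the 1089 higher genes only through HSD ICH. The summed level of the genes under 1 CPM was 2872, 2843 and 2938 CPM in ND ICH and 2431, 2116 and 1707 CPM in HSD ICH.

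**Figure D1:**
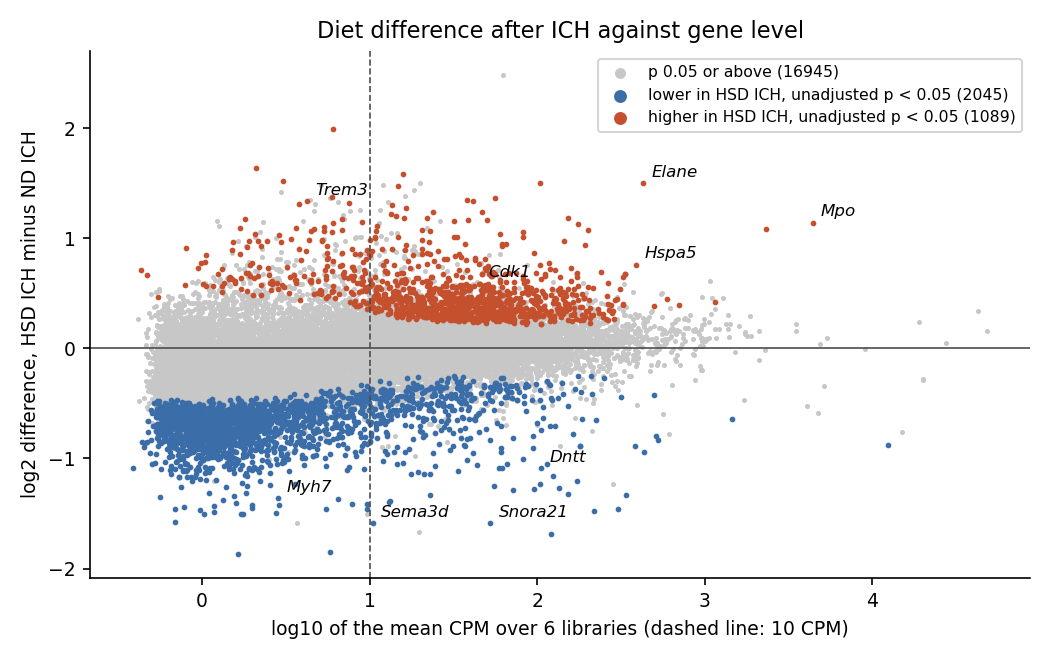
Log2 difference between HSD ICH and ND ICH, on the log2(CPM + 0.5) scale, against the log10 mean CPM of each of the 20079 genes tested, with the 1089 genes higher and the 2045 lower at an unadjusted p under 0.05 in color. Lower genes crowd to the left of the dashed line at 10 CPM, where the log10 mean is 1, and higher genes to its right.

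Of 36 gene lists, that of the G2 and M phases had the largest share of higher members with all 6 libraries. Of 53 members, all above 10 CPM, 44 were higher (83.0%) and 0 lower. Among all genes above 10 CPM, 9.02% were higher in the fit of their own. The median log2 difference of the list was 0.42, against -0.03 for all genes tested and 0.08 for those above 10 CPM. In 45 members each HSD ICH library exceeded each ND ICH library. Without HSD ICH replicate 3, 42 were higher, 1 was lower and the median was 0.36. The 12-library fit gave 21 members an adjusted p under 0.05, and DESeq2 gave 6.

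Cdk1, the kinase that drives entry into mitosis, had 37.9, 34.03 and 36.6 CPM in the ND ICH libraries and 56.0, 52.6 and 55.3 CPM in the HSD ICH libraries. The groups did not overlap, and the log2 difference was 0.59 ± 0.10 (SE) with all libraries and 0.58 without HSD ICH replicate 3 (unadjusted p = 0.00021 and 0.000232). Its partner cyclin B1, encoded by Ccnb1, had 30.5, 28.1 and 29.4 CPM in ND ICH and 46.5, 40.7 and 43.9 CPM in HSD ICH, a log2 difference of 0.57 ± 0.11 (SE). Polo-like kinase 1 (Plk1) followed the same order, with 21.8, 18.7 and 22.8 CPM against 35.6, 29.5 and 36.7 CPM and a log2 difference of 0.67 ± 0.13 (SE). For these 3 genes HSD ICH replicate 3 lay close to the other HSD ICH libraries.

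The spindle checkpoint kinase Bub1 had 29.1, 29.4 and 31.6 CPM in ND ICH and 42.1, 44.2 and 50.1 CPM in HSD ICH. Anln, an actin-binding protein of the cleavage furrow, had 52.5, 49.4 and 48.4 against 70.4, 71.8 and 79.6 CPM. Of the importin Kpna2, HSD ICH replicate 3 held the most, with 50.02, 49.8 and 55.3 CPM in ND ICH against 78.6, 73.0 and 101 CPM. None of these 3 genes overlapped between groups, and their log2 differences were 0.59, 0.56 and 0.69. Outside the list, Prc1, which bundles microtubules of the spindle midzone, had 68.7, 65.6 and 66.7 CPM in ND ICH and 94.7, 96.0 and 95.3 CPM in HSD ICH, and the spindle protein Spag5 42.7, 42.7 and 42.5 against 60.8, 63.2 and 63.2 CPM. Among genes above 10 CPM, Cdk1, Spag5, Prc1, Anln, Ccnb1 and Bub1 were the 6 higher protein-coding genes with the smallest p values. Mki67, which encodes the proliferation marker Ki-67, had 942, 1038 and 969 CPM in ND ICH and 1239.8, 1287 and 1424 CPM in HSD ICH, a log2 difference of 0.42 ± 0.14 (SE). The member below was the condensin gene Ncapd2, with 367, 439.9 and 373 CPM in ND ICH and 332, 317 and 339 CPM in HSD ICH and an unadjusted p of 0.0582 with all libraries and 0.0414 without HSD ICH replicate 3. Hmgb2 and Lbr, also members, overlapped between groups with log2 differences of 0.33 and 0.14.

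Promoters of cell cycle genes are known for 2 short elements, the cell cycle genes homology region (CHR, TTTGAA) and the CCAAT box (CCAAT). Both were searched on both strands in the RefSeq promoter windows of GRCm38.p6, 250 bases before to 50 after the start, and matches of one may share end bases with the other. Of 53 members, 47 had 51 promoter windows between them. TTTGAA was found in 36 of these 51 windows (70.6%), against 17.9% of all 32851 windows, and CCAAT in 39 (76.5%), against 37.4%. Both were found in 29 windows (56.9%), against 6.95% of all. A match describes the letters only. The windows of the 4 members with the smallest p values that hold TTTGAA, with both elements on either strand in capitals, show where these letters stand in the promoters of genes that were higher:
Cdk1: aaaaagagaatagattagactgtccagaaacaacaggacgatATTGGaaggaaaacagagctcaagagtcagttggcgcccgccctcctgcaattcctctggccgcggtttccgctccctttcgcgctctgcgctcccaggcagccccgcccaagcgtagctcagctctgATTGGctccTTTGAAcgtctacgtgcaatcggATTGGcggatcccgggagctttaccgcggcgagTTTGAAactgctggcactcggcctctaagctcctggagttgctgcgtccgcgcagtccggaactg
Anln: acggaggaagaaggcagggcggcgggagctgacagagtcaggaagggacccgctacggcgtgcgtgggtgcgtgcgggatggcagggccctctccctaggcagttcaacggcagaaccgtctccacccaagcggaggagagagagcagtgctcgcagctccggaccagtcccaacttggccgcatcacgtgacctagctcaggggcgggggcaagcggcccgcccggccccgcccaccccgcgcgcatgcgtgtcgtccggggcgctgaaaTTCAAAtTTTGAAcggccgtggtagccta
Kpna2: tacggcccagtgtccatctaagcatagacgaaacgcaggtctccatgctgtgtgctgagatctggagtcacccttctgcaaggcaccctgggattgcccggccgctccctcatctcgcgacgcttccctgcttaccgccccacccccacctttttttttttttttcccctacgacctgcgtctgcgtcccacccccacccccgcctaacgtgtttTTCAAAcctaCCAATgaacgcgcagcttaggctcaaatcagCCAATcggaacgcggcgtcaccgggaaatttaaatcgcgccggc
Plk1: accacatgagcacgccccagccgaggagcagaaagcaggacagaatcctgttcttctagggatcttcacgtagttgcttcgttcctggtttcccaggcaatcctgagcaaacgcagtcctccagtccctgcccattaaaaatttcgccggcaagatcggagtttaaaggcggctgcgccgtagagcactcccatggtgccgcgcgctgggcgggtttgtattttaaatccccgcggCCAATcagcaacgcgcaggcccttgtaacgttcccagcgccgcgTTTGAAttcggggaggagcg

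The Cdk1 window lies at chr10:69352863-69353162 on the minus strand of GRCm38.p6, the Anln window at chr9:22389157-22389456 on the minus strand, the Kpna2 window at chr11:106999476-106999775 on the minus strand and the Plk1 window at chr7:122159185-122159484 on the plus strand. Each window covers the upstream flank and the first bases of the transcript. In Cdk1, TTTGAA began 71 and 15 bases before the start, and CCAAT was found in reverse 208, 80 and 48 bases before it. In Plk1, CCAAT began 14 bases before the start and TTTGAA at base 31 after it. The Kpna2 window held TTTGAA in reverse 35 bases before the start, and the Anln window held it in both directions after the start, at bases 22 and 29, with no CCAAT.

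DNA replication genes had calls in the same direction. Of 44 S phase genes, 17 were higher and 0 lower, with a median log2 difference of 0.24, and 9 were higher without HSD ICH replicate 3, with a median of 0.16. The repressor E2f8 had 73.5, 71.2 and 69.8 CPM in ND ICH and 88.6, 103 and 116 CPM in HSD ICH. Rrm2, the small subunit of ribonucleotide reductase, had 40.4, 33.0 and 38.8 against 52.2, 54.0 and 88.3 CPM, and the replicative helicase subunit Cdc45 25.7, 28.4 and 26.1 against 35.2, 35.7 and 49.3 CPM. The 3 genes did not overlap between groups, and HSD ICH replicate 3 was the highest library for each. Pcna, the sliding clamp, had 109, 101 and 117 CPM against 124, 123 and 142 CPM, a log2 difference of 0.25 ± 0.11 (SE). Of 68 replication-dependent histone genes tested, 22 were higher and 0 lower (median 0.31), and 15 without HSD ICH replicate 3. H3c3 had 128, 102 and 132 CPM in ND ICH and 167, 227 and 206 CPM in HSD ICH, and the linker histone H1f5 267, 189 and 309 against 399, 345 and 438 CPM. Reads of near-identical histone genes could be split between copies, so single histone genes are uncertain.

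Azurophil granule genes summed higher in each HSD ICH library than in any ND ICH library, most in replicate 3. Their summed level was 4122, 3566 and 2887 CPM in ND ICH and 5653, 4760 and 14282 CPM in HSD ICH. Mpo alone made up most of this sum in each library, so the sum mainly follows that gene. Of 11 members, 7 were higher and 0 lower, with a median log2 difference of 0.48, and 5 were higher without HSD ICH replicate 3, with a median of 0.21. Mpo, the myeloperoxidase of neutrophil granules, had 3064, 2562 and 1989.7 CPM in ND ICH and 4314, 3534 and 11011 CPM in HSD ICH. Its log2 difference was 1.14 ± 0.40 (SE) with all libraries and 0.64 without HSD ICH replicate 3, and the groups did not overlap in either case. Neutrophil elastase (Elane) had 253, 194 and 132 CPM in ND ICH and 368, 299 and 1343 CPM in HSD ICH. HSD ICH replicate 3 held several times the level of the other HSD ICH libraries, and the log2 difference went from 1.501 with it to 0.83 without it. Cathepsin G (Ctsg) had 129, 122 and 109 CPM and 184, 182 and 481 CPM, and its unadjusted p was 0.00813 with all libraries and 0.000157 without HSD ICH replicate 3. The serine proteases Prtn3 and Prss57 were higher too, with 144, 98.6 and 139.6 against 198, 177 and 404 CPM and 12.4, 12.8 and 12.3 against 19.9, 22.5 and 42.9 CPM. The granule proteins Lyz2 (lysozyme) and Srgn (serglycin) and the protease activator Ctsc overlapped between groups, with log2 differences of 0.15, 0.37 and 0.20.

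Other genes of granulocyte-monocyte progenitors had calls in the same direction. Of 31 members, 17 were higher and 0 lower, and 12 passed the study threshold. The median log2 difference was 0.57 with all libraries and 0.33 without HSD ICH replicate 3, when 14 were higher and 1 lower. Trem3, an activating receptor of myeloid cells, had 1.77, 1.97 and 2.50 CPM in ND ICH and 4.78, 4.58 and 9.68 CPM in HSD ICH, a log2 difference of 1.34 ± 0.28 (SE), and 1.02 without HSD ICH replicate 3. Hp (haptoglobin) had 13.1, 10.7 and 12.6 against 20.4, 20.0 and 54.7 CPM. Ms4a3, a marker of granulocyte-monocyte progenitors, had 22.8, 20.6 and 17.7 against 39.5, 30.6 and 116 CPM, and Anxa3 24.7, 21.02 and 19.9 against 37.6, 33.0 and 96.6 CPM. In these 4 genes, HSD ICH replicates 1 and 2 already exceeded the ND ICH libraries. Among transcription factors of the lineage, Spi1 (PU.1) had 57.8, 50.2 and 58.6 CPM in ND ICH and 72.2, 61.2 and 93.8 CPM in HSD ICH, Gfi1 26.7, 20.7 and 26.4 against 31.3, 31.3 and 49.7 CPM, and Cebpe, which acts later in granulocyte maturation, 4.34, 2.81 and 2.35 against 4.58, 5.03 and 17.0 CPM. The monocyte factor Irf8 was higher but overlapped between groups, with 87.0, 72.2 and 59.5 against 108, 76.2 and 189 CPM, and Cebpa overlapped as well, with 49.5, 26.2 and 51.2 against 49.6, 60.8 and 63.7 CPM. Among receptors for growth factors of the lineage, Csf3r had a log2 difference of -0.07 ± 0.10 (SE) and Csf1r 0.53 ± 0.26, both with overlapping groups.

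Of 20 genes of maturing neutrophils, 4 were higher (Cxcr2, Lcn2, Chil3 and Pglyrp1) and 1 lower (Padi4), with a median log2 difference of 0.18, and their summed level was 114, 122 and 99.3 CPM in ND ICH and 119, 131 and 143 CPM in HSD ICH. Of 14 basophil and mast cell genes, 3 were higher (Hdc, Ms4a2 and Mcpt8) and 0 lower (median 0.35). Hdc, which makes histamine, had 17.5, 12.7 and 11.9 CPM in ND ICH and 20.4, 24.9 and 50.1 CPM in HSD ICH, and Ms4a2, the beta chain of the IgE receptor, 8.41, 8.06 and 4.48 against 10.1, 14.6 and 19.1 CPM. Neither gene overlapped between groups.

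**Figure D2:**
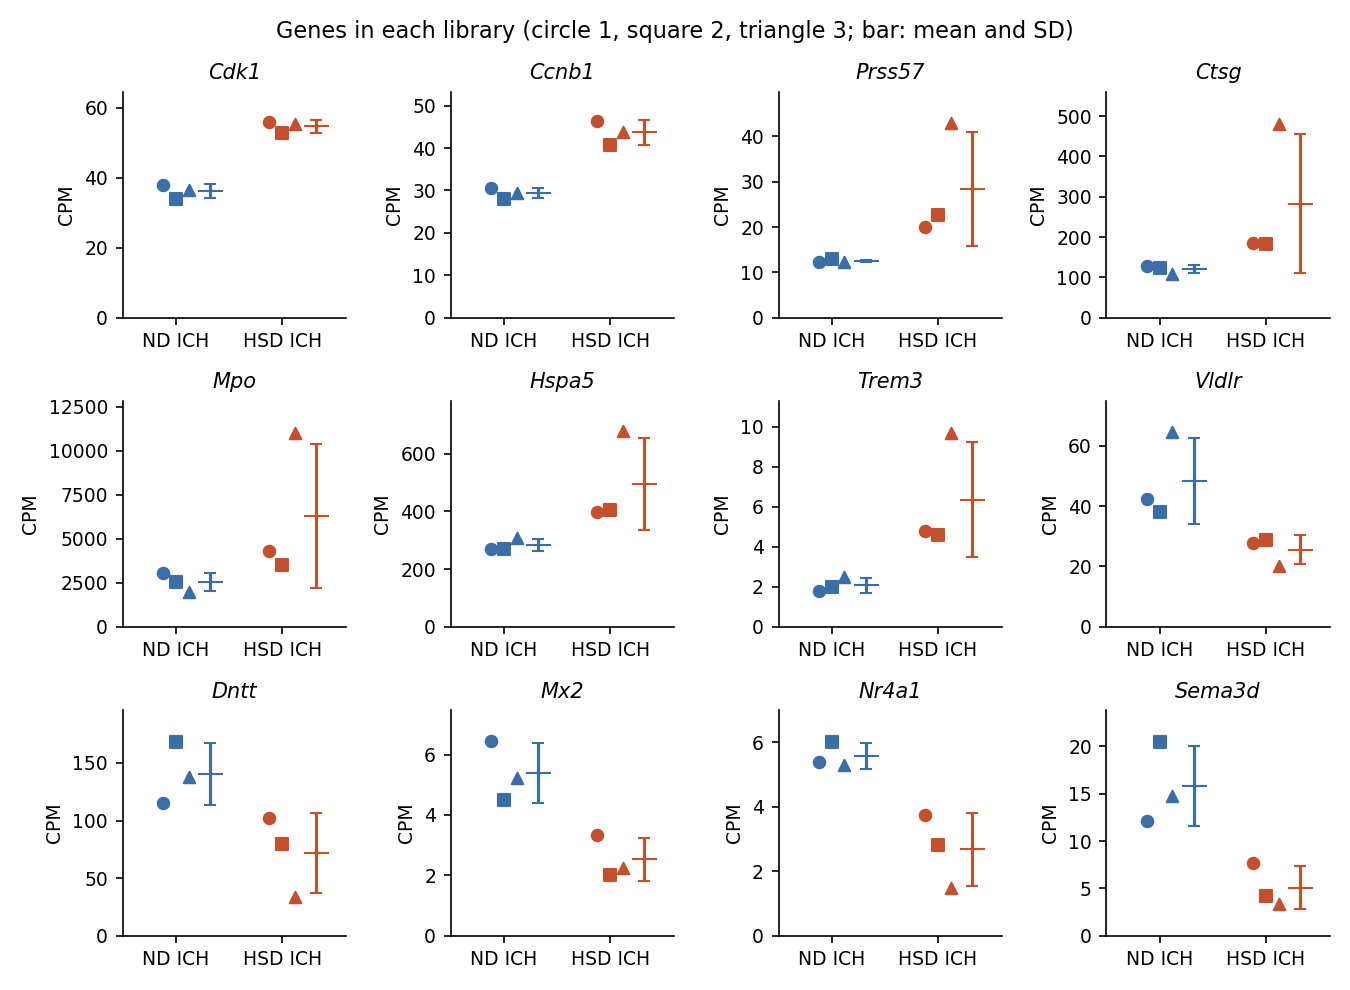
CPM of 12 genes in each library, with the y axis from 0. Points are the 3 ND ICH (blue) and 3 HSD ICH (red) libraries, circles standing for replicate 1, squares for 2 and triangles for 3, and the bar beside them gives the mean and SD. The HSD ICH triangle lies far above the other HSD ICH points for Mpo (11011 CPM) and Ctsg (481 CPM) and among them for Cdk1 and Ccnb1.

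ER chaperones and genes of the unfolded protein response were higher in 25 of 52 members and lower in 0, with a median log2 difference of 0.43. Without HSD ICH replicate 3, 16 were higher and the median was 0.22. Hspa5, which encodes the ER chaperone BiP, had 271, 270.4 and 309 CPM in ND ICH and 399, 406 and 678 CPM in HSD ICH. Its log2 difference was 0.76 ± 0.20 (SE), and 0.51 without HSD ICH replicate 3. Sdf2l1, a partner of BiP, had 14.2, 9.61 and 16.2 against 20.6, 22.3 and 39.7 CPM, and Edem1, which directs misfolded glycoproteins to degradation, 38.3, 32.8 and 38.7 against 51.6, 49.5 and 84.9 CPM. Hspa5 and Sdf2l1 also passed an adjusted p under 0.05 by the 12-library fit and by DESeq2, and Edem1 by the first alone. The transcription factor Xbp1 had 44.0, 42.7 and 52.9 CPM against 58.0, 60.5 and 101 CPM (log2 difference 0.61 ± 0.20). The 3 sensors of the response, Ern1, Atf6 and Eif2ak3, overlapped between groups and had log2 differences of 0.24, 0.22 and 0.22. ATF4 targets, which report on amino acid and translation stress, were higher in 2 of 27 members (Psat1 and Gpt2) and lower in 2 (Trib3 and Aldh1l2), with a median of 0.14. Each share is 7.41%, beside 5.42% higher and 10.2% lower among all genes tested.

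Among metabolic and housekeeping lists, medians lay nearer to 0 without HSD ICH replicate 3. Of 76 nuclear genes of oxidative phosphorylation, 11 were higher and 0 lower, and the median log2 difference went from 0.21 to 0.04 without HSD ICH replicate 3, with 5 higher. Of 13 mitochondrially encoded protein genes, 0 were called in either direction. Of 29 glycolysis genes, 7 were higher and 1, the glucose transporter gene Slc2a3, lower (median 0.13), with 4 and 0 without HSD ICH replicate 3. Among 31 antioxidant genes, 10 were higher and 0 lower, and 7 without HSD ICH replicate 3. The metal-binding metallothionein Mt1 had 7.30, 8.36 and 4.55 CPM in ND ICH and 13.8, 11.8 and 42.3 CPM in HSD ICH, the superoxide dismutase Sod1 64.9, 61.6 and 79.4 against 90.2, 86.1 and 85.8 CPM. Of 82 cytosolic ribosomal protein genes, 2 were higher (Rps12 and Rpl30) and 0 lower, with a median of 0.10 that went to -0.02 without HSD ICH replicate 3, and of 122 of their pseudogenes, which share sequence with them, 10 were higher and 1 lower. Of 28 iron and heme genes, 4 were higher, among them Alas1, the entry enzyme of heme synthesis, with 94.9, 84.7 and 73.3 CPM in ND ICH and 139, 123 and 409 CPM in HSD ICH. Of 36 fatty acid genes, 3 were higher (Dgat2, Scd2 and Hadha) and 2 lower (Ppara and Elovl6), and of 29 cholesterol synthesis genes 1 was higher (Fdft1). The shares of higher genes in these 2 lists, 8.33% and 3.45%, lie below the 9.02% of all genes above 10 CPM.

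Of 32 genes of hematopoietic stem cells, 10 were lower and 0 higher, with a median log2 difference of -0.46. Without that library 6 were lower and the median was -0.18, and the summed level was 1004, 1087 and 1050 CPM in ND ICH and 875, 929 and 525 CPM in HSD ICH. Vldlr, a lipoprotein receptor, had 42.3, 38.1 and 64.6 CPM in ND ICH and 27.9, 28.9 and 20.0 CPM in HSD ICH. Its log2 difference was -0.88 ± 0.21 (SE), and -0.72 without HSD ICH replicate 3. Robo4, a receptor of stem cell homing, had 12.8, 10.7 and 12.3 CPM against 8.95, 7.24 and 3.87 CPM, and the stem cell transcription factor Mecom 35.8, 38.9 and 46.5 against 29.4, 32.2 and 17.2 CPM. These 3 genes did not overlap between groups. Hlf, another stem cell factor, had 149.7, 148 and 127 CPM in ND ICH and 124, 119.5 and 71.3 CPM in HSD ICH, and its unadjusted p was 0.04 with all libraries and 0.0739 without HSD ICH replicate 3. Procr and Slamf1, which encode the stem cell surface proteins EPCR and CD150, overlapped between groups, with log2 differences of -0.28 and -0.12. The homeobox factors Hoxb4 and Hoxa9 overlapped as well, at 0.06 and -0.21.

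Lymphoid genes were called in the lower direction more than in the higher, as were low genes in general. Of all genes tested, 20.3% were lower under 1 CPM and 14.3% between 1 and 10 CPM. The shares were 34.8% for lymphoid priming, 50% for mature lymphocyte, 45.5% for MHC class II and 61.9% for immunoglobulin variable genes. In the fit above 10 CPM, 3.69% of all genes were lower. There 3 of 10 lymphoid priming, 0 of 2 mature lymphocyte and 1 of 3 MHC class II genes were. Of 23 lymphoid priming genes tested, 8 were lower and 0 higher (median -0.45), and 6 were lower without HSD ICH replicate 3 (median -0.31). Dntt, the terminal transferase of early lymphoid progenitors, had 115, 168 and 138 CPM in ND ICH and 102, 79.4 and 33.9 CPM in HSD ICH, a log2 difference of -1.09 ± 0.34 (SE). The cytokine receptor Flt3 had 233, 296 and 289 CPM in ND ICH and 220.5, 201 and 116 CPM in HSD ICH, and the adaptor Lax1 12.4, 19.2 and 17.1 against 9.22, 9.31 and 5.06 CPM. The 3 genes did not overlap between groups, and HSD ICH replicate 3 was the lowest library for each. Ikzf1, a factor needed for all lymphoid lineages, overlapped, with a log2 difference of 0.06 ± 0.11 (SE). Genes of mature lymphocytes were at low levels, with 10 of 20 lower and 1 (Cd79b) higher. Of the 10, Blk and Il2rb passed the read filter only through ND ICH, where they are high. Without HSD ICH replicate 3, 8 were lower, Trbc1 and Trbc2 no longer among them, Cd79b was not called (unadjusted p = 0.0575 by limma) and Igkc was higher (log2 difference 1.37). The summed level of the list was 60.4, 71.8 and 62.5 CPM in ND ICH and 69.0, 63.4 and 39.8 CPM in HSD ICH. Of 11 MHC class II genes and partners, 5 were lower and 0 higher (median -0.65), and 6 were lower without HSD ICH replicate 3 (median -0.55). The invariant chain Cd74 had 8.02, 8.18 and 6.68 CPM against 5.74, 4.07 and 2.02 CPM, and the class II transactivator Ciita 2.63, 3.34 and 4.11 against 2.32, 1.55 and 1.19 CPM. Immunoglobulin variable segments were lower in 13 of 21 and higher in 0, and in 7 and 2 without HSD ICH replicate 3, and 2 of the 13 passed the read filter only through ND ICH. These segments resemble one another and reads could be split between them.

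Interferon response genes were lower in 19 of 49 members and higher in 0, with a median log2 difference of -0.35, and in 13 without HSD ICH replicate 3 (median -0.26). The antiviral GTPase Mx2 had 6.44, 4.48 and 5.21 CPM in ND ICH and 3.35, 2.00 and 2.24 CPM in HSD ICH, and Ifi44 11.4, 10.7 and 13.2 against 9.22, 4.88 and 4.98 CPM. Neither overlapped between groups. The transcription factor Irf1 had 47.1, 56.5 and 58.5 CPM against 46.6, 42.5 and 37.5 CPM, whereas Irf7 overlapped, with a log2 difference of -0.30.

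Immediate early genes, the transcription factors and feedback regulators that respond within minutes to a stimulus, were lower in 15 of 45 members and higher in 0 (median -0.38), and in 11 without HSD ICH replicate 3 (median -0.26). The nuclear receptor Nr4a1 had 5.39, 6.03 and 5.29 CPM in ND ICH and 3.76, 2.81 and 1.48 CPM in HSD ICH. The groups did not overlap, and the log2 difference was -0.999 ± 0.27 (SE) with all libraries and -0.69 without HSD ICH replicate 3. Its relative Nr4a3 had 2.50, 2.03 and 2.20 CPM in ND ICH and 1.57, 0.444 and 0.650 CPM in HSD ICH, also without overlap, while Nr4a2 had 5.65, 5.19 and 5.14 against 6.08, 4.95 and 4.59 CPM and overlapped (log2 difference -0.04 ± 0.18). Ier2 had 58.6, 72.5 and 56.8 CPM against 48.4, 39.5 and 46.3 CPM. Fos and Egr1 were lower, with log2 differences of -0.57 and -0.64, yet overlapped between groups, since HSD ICH replicate 1 lay within ND ICH. Jun and Myc overlapped as well, at -0.46 and 0.04.

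**Figure D3:**
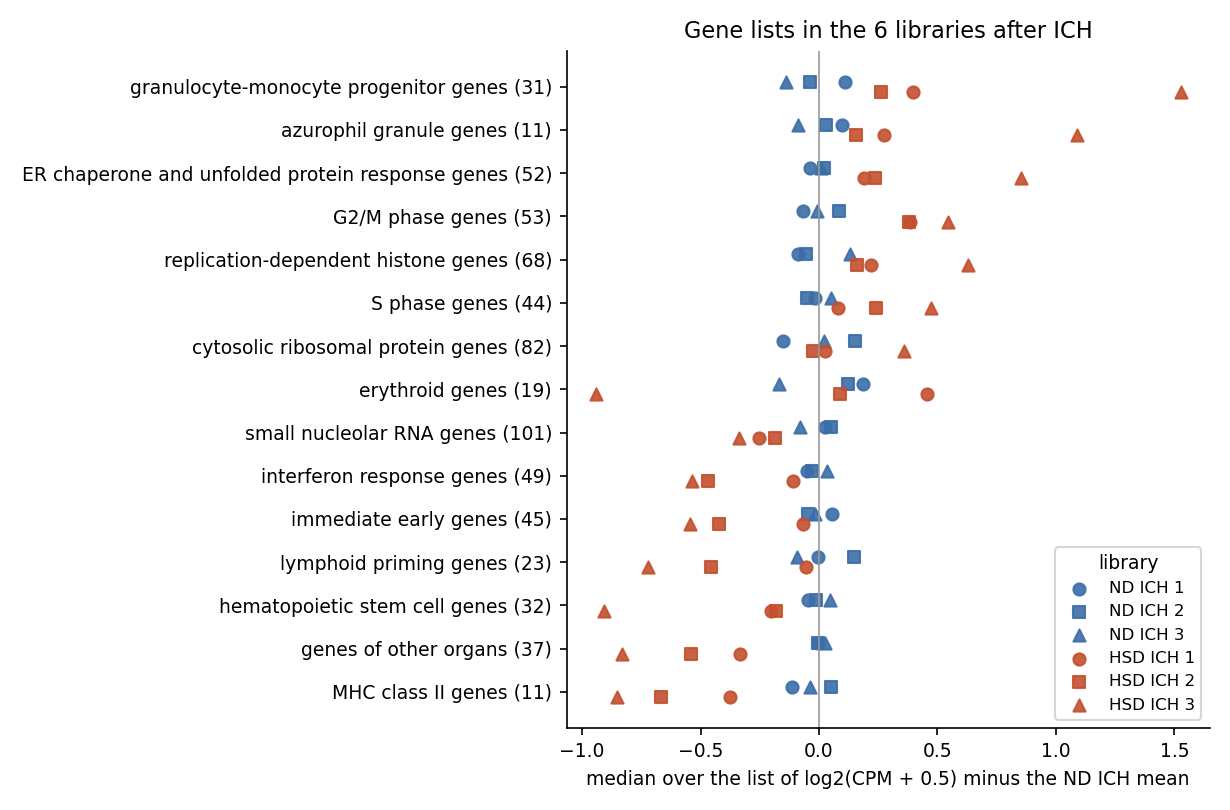
Median over each gene list, in each library, of log2(CPM + 0.5) minus the ND ICH mean of the gene. Blue points are ND ICH and red points HSD ICH libraries, and the number of genes tested is in parentheses. HSD ICH replicate 3 (triangle) lies at 1.53 for granulocyte-monocyte progenitor genes, at -0.94 for erythroid genes and at -0.91 for hematopoietic stem cell genes, away from the other HSD ICH libraries, whereas for G2/M genes the 3 HSD ICH libraries lie at 0.39, 0.38 and 0.54.

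Of 101 small nucleolar RNA genes tested, 20 were lower (19.8%) and 0 higher (median log2 difference -0.21), and 19 were lower without HSD ICH replicate 3. This share is near that of low genes, since 20.3% of all genes under 1 CPM and 14.3% between 1 and 10 CPM were lower. Of the 13 members above 10 CPM, 11 were lower in the fit of such genes, against 3.69% of all genes there. Their summed level was 1124, 1302 and 954 CPM in ND ICH and 656, 636 and 599 CPM in HSD ICH, so HSD ICH replicate 3 lay near the other HSD ICH libraries. In the 12-library fit 12 had an adjusted p under 0.05, and by DESeq2 11. Snora21, which guides pseudouridylation of ribosomal RNA, had 63.2, 118 and 58.5 CPM in ND ICH and 27.6, 20.8 and 26.9 CPM in HSD ICH. Its log2 difference was -1.59 ± 0.24 (SE), and -1.64 without HSD ICH replicate 3. Snora15 had 7.43, 10.6 and 7.05 against 2.39, 2.44 and 3.29 CPM, and Snord17 148, 93.7 and 133 against 69.3, 69.5 and 57.5 CPM, both without overlap. Among the 159 genes lower at the study threshold, 23 were annotated as small nucleolar RNAs and 11 as small nuclear RNAs, and 0 of the 56 higher genes were either. Small nucleolar RNAs mostly lie in introns of other genes, and reads from such a host cannot be told apart here.

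Genes of other organs, such as brain, heart and cartilage, had low levels, with 3 of the 37 tested above 10 CPM, and none was higher. Under 1 CPM, 0.248% of all genes tested were higher and 20.3% lower. Between 1 and 10 CPM, 2.10% were higher and 14.3% lower. In the list, 56.8% were lower. Of 37 tested, 21 were lower, 2 of which (Gabrb1 and Krt14) passed the read filter only through ND ICH, and 0 were higher (median log2 difference -0.57), and 15 without HSD ICH replicate 3 (median -0.43). The cardiac myosin Myh7 had 3.68, 4.24 and 4.92 CPM in ND ICH and 1.78, 1.48 and 0.903 CPM in HSD ICH, and the cardiac troponin Tnnt2 2.56, 2.99 and 2.06 against 0.956, 0.665 and 0.361 CPM. The cartilage collagen Col2a1 had 3.35, 2.99 and 2.86 against 1.502, 0.961 and 1.08 CPM, so that none of the 3 overlapped between groups. The summed level of this list was 184, 197 and 189 CPM in ND ICH and 160, 134 and 105 CPM in HSD ICH. Of 11 olfactory receptor genes, 0 were called in either direction, with sums of 17.5, 19.4 and 15.7 CPM against 15.8, 19.7 and 11.8 CPM. An ICH library left 2 to 29 of the listed genes without a read, and a library without ICH left 1393 to 1755. Every listed gene had a read in at least 3 of the 6 ICH libraries, since the smallest 3rd-highest CPM was 0.0597 there. In the libraries without ICH it was 0. The list of genes thus favors ICH libraries, and the ranges of genes without a read are not a like comparison. Of the 2045 lower genes, 298 (14.6%) had no read in any library without ICH, as had 33 of the 159 at the study threshold and 80 of the 239 lower genes of the 12-library fit, against 705 of 20079 genes tested (3.51%) and 0 of the 1089 higher genes. Levels differed as well, with a median of the mean CPM of 1.71 for the lower genes, 33.5 for the higher and 8.86 for all tested. These shares therefore also set low genes against abundant ones. The part of this low-level signal in the lower calls was not tested.

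Few markers of other marrow cells passed the test. Of 18 marrow macrophage genes, 1 was lower, the Fc receptor gene Fcgr1, and 0 higher, and their sum was 378, 320 and 290 CPM in ND ICH and 362, 241 and 238 CPM in HSD ICH. Their median log2 difference was nonetheless -0.44, and -0.30 without HSD ICH replicate 3, and 16 of the 18 had a log2 difference below 0. Of 19 erythroid genes, 1 was lower, Hba-a1 with 31.1, 34.4 and 22.5 CPM against 37.2, 6.43 and 5.60 CPM, and its near-identical copy Hba-a2 makes it uncertain. The median of the erythroid list was -0.12 with all libraries and 0.22 without HSD ICH replicate 3, when 4 were higher, and its sum was 541, 515 and 461 CPM against 603, 499 and 246 CPM. The median of 16 megakaryocyte genes turned likewise, from -0.21 to 0.14. Their sum was 442, 409.9 and 432 CPM in ND ICH and 439.7, 459.8 and 316 CPM in HSD ICH. Of 12 chemokine and cytokine genes, 3 were lower (Ccl3, Ccl4 and Il18) and 0 higher. Of 36 toll-like receptor signaling genes, 2 were lower (Tlr7 and Tlr13) and 2 higher (Chuk and Traf3). Of 24 inflammasome genes, 3 were lower (Txnip, Il1r1 and Nod2) and 2 higher (Naip2 and Mefv). Of 29 NFAT signaling genes, 4 were lower (Ppp3cc, Nfatc2, Rcan2 and Itpr2), of which Rcan2 passed the read filter only through ND ICH, and 1 higher (Stim2). The last 3 counts are near the shares of all genes tested, of which 5.42% were higher and 10.2% lower. Lower genes made up 5.56% of the toll-like receptor, 12.5% of the inflammasome and 13.8% of the NFAT list. Higher genes made up 5.56%, 8.33% and 3.45%.

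**Figure D4:**
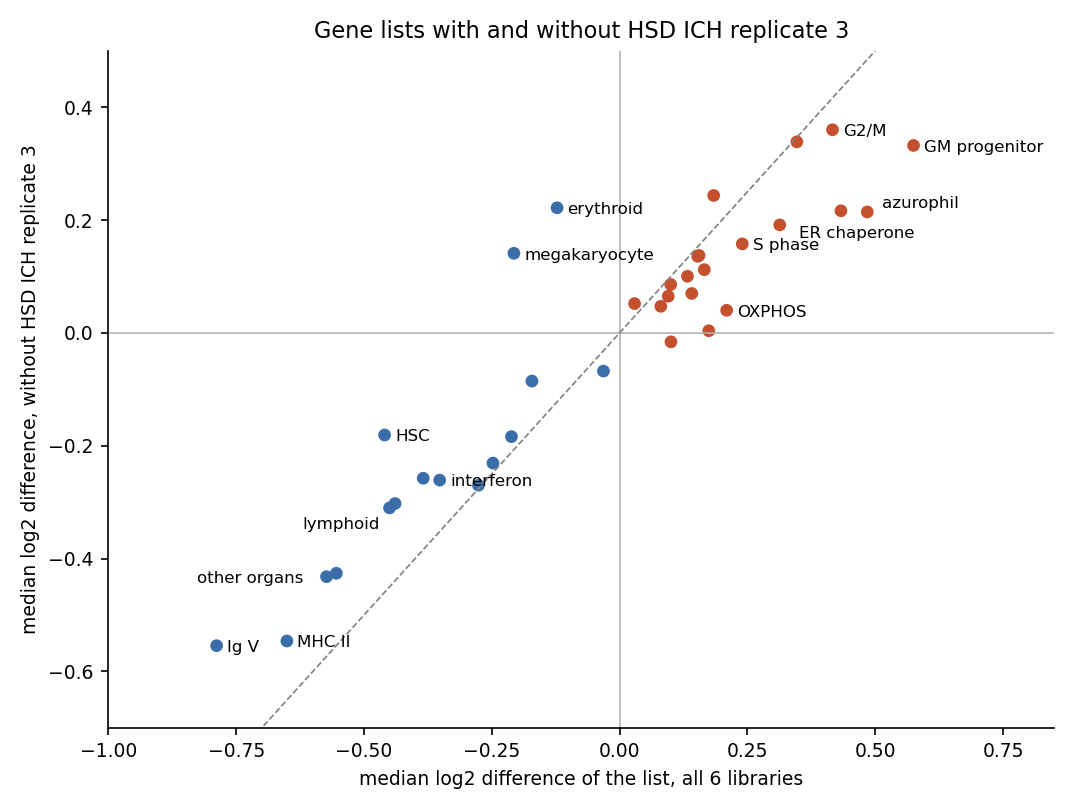
Median log2 difference of each gene list without HSD ICH replicate 3 (y axis) against that with all 6 libraries (x axis), with the line of equality dashed and red points for lists above 0 on the x axis. G2/M genes stay near the line at 0.42 and 0.36, whereas granulocyte-monocyte progenitor genes (0.57 and 0.33) and hematopoietic stem cell genes (-0.46 and -0.18) lie closer to 0 without that library, and erythroid and megakaryocyte genes change sign.

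Single protein-coding genes were ranked in both directions, and those of the study threshold were chosen after their values were seen. The higher ones led with Trem3, Prss57, Ms4a2, Hdc, Hp, Ptgr1, Gpc1 and Mt1. Of these, Ptgr1, a reductase of prostaglandins and leukotrienes, had 6.24, 6.99 and 5.80 CPM in ND ICH and 10.6, 10.3 and 26.2 CPM in HSD ICH, and the heparan sulfate proteoglycan Gpc1 31.0, 25.6 and 20.2 against 42.1, 43.8 and 119 CPM. The lower ones led with Pcsk6, Myh7, Obox2, Sema3d, Tnnt2, Enox1, Myl10 and Col2a1, and all but Sema3d lay at or below 5 CPM in each library. Sema3d, a secreted guidance cue, had 12.2, 20.4 and 14.8 CPM in ND ICH and 7.65, 4.21 and 3.40 CPM in HSD ICH, a log2 difference of -1.59 ± 0.29 (SE), and -1.36 without HSD ICH replicate 3. Among genes above 10 CPM, the 6 lower ones with the smallest p values were Sema3d, Ccser1, Gimap8, Clnk, Lfng and Txnip. Gimap8, a GTPase of lymphocytes, had 16.2, 17.7 and 16.4 against 11.3, 8.80 and 5.85 CPM. The immune adaptor Clnk had 19.1, 25.1 and 19.7 against 13.9, 11.7 and 7.66 CPM, and Lfng, which modifies Notch, 19.1, 18.0 and 23.6 against 12.9, 13.7 and 10.3 CPM. Txnip, an inhibitor of thioredoxin and of glucose uptake, had 186, 250.4 and 247 CPM in ND ICH and 164, 148 and 124 CPM in HSD ICH, and all 4 of these genes were lower in each HSD ICH library than in each ND ICH library.

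The diet difference after ICH was set against that between HSD and ND without ICH, which came from the other 6 libraries and 16787 genes, of which 613 were higher (3.65%) and 550 lower (3.28%). By limma with all 12 libraries, 0 of 20393 genes had an adjusted p under 0.05 for the difference between both diet differences, with the smallest adjusted p at 0.182, and 453 (2.22%) were positive and 1250 (6.13%) negative at an unadjusted p under 0.05. Without HSD ICH replicate 3 the smallest adjusted p was 0.347. Without ICH, 34 of 53 G2/M genes were higher (median log2 difference 0.24), beside 44 after ICH. Immediate early genes were lower in 29 of 43 tested without ICH (median -0.39), beside 15 of 45 after ICH. Azurophil granule genes were higher in 3 of 11 and granulocyte-monocyte progenitor genes in 3 of 31 without ICH, beside 7 and 17 after it. With HSD ICH replicate 3 left out, the counts after ICH were 5 and 14. The azurophil median log2 difference was 0.26 without ICH, beside 0.48 after it and 0.21 after it without HSD ICH replicate 3. For granulocyte-monocyte progenitor genes these medians were 0.15, 0.57 and 0.33. ER chaperone genes were higher in 7 of 52 without ICH, beside 25, and 1 of 31 hematopoietic stem cell genes was lower, beside 10 of 32. With HSD ICH replicate 3 left out, the counts after ICH were 16 and 6. Nr4a1 differed by -1.69 without ICH and -0.999 after it, Cdk1 by 0.31 and 0.59, and Hspa5 by 0.12 and 0.76. None of these differences between differences passed the test after adjustment.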

How the data were processed

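RNA of HSPCs sorted from bone marrow was sequenced from total RNA with a stranded SMART-Seq kit. Per the labels and methods, the authors aligned reads to mm10, counted them per gene with featureCounts and scaled them with edgeR 3.24.3 (TMM), and the deposited unit is CPM, 1 file per library. Strand use in counting and the annotation release are not given in the sources used here. CPM values were whole multiples of the CPM of 1 read, and 100% of values in the ICH libraries lay within 0.01 of a whole read, so reads were recovered. A gene was kept if 3 or more of the 6 libraries held 10 or more of its reads. Group, the only term, was fitted on log2(CPM + 0.5) with limma 3.58.1 (R 4.3.3, trend, Benjamini-Hochberg adjustment). A fold change on this scale understates low genes. edgeR 4.0.16 and DESeq2 1.42.0 on recovered reads, other pseudocounts, filters and scalings, thinning and single libraries left out were alternatives, and those for the count at an unadjusted p, and for lists and named genes above 10 CPM without HSD ICH replicate 3, were added after seeing the data. The code was tested on simulated data.

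The comparison, gene lists and members were chosen with earlier results of these data known. The text names the 6 genes in each direction with the smallest p above 10 CPM, protein-coding, non-overlapping and without Gm or Rik names, the 4 (or fewer) members of a list whose p was smallest, the Nr4a genes and the sort markers. No gene met the rule on an adjusted p under 0.05. Other members were named for their known role, or because a count was small, after their values were seen. Of 20792 gene identifiers, 20550 were in GENCODE M21, used for biotypes. Replicate numbers did not pair the samples, with same-number correlations of 0.04, -0.08 and -0.07. Results for a few genes are not reported here.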

Additional observations from a re-analysis of the deposited data

How the results depend on the processing

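At an adjusted p under 0.05, 0 genes were called under 16 of the 18 alternatives, and DESeq2 gave 98 and 1 fit of all 12 libraries 319. At the study threshold the 215 genes became 784 with a pseudocount of 0.1 and 102 with 1, 61 above 10 CPM, 21 above 10 CPM without HSD ICH replicate 3, 1001 by edgeR's quasi-likelihood test and 798 by DESeq2. Leaving out 1 library gave 112 to 577, with 112 without HSD ICH replicate 3, 577 without HSD ICH replicate 1 and 426 without HSD ICH replicate 2. The 3134 genes at an unadjusted p under 0.05 became 1229 above 10 CPM, fewer genes being tested, and 839 there without HSD ICH replicate 3. Leaving out 1 library gave 2027 to 3919, with 2038 without ND ICH replicate 2 and 2027 without HSD ICH replicate 3. The median log2 difference of G2/M genes was 0.33 with scaling by protein-coding genes. It was -0.13 for lymphoid priming genes and -0.33 for genes of other organs above 10 CPM without HSD ICH replicate 3. For MHC class II genes it was -0.35 above 10 CPM, -0.28 there without HSD ICH replicate 3, and -0.95 to -0.45 with 1 library left out. For hematopoietic stem cell genes it was -0.58 to -0.18 with 1 library left out. For small nucleolar RNA genes it was -1.01 above 10 CPM with and without HSD ICH replicate 3. Signs turned for mature lymphocyte genes above 10 CPM (0.11, and 0.61 without HSD ICH replicate 3), where 2 genes remain, for chemokine and cytokine genes above 10 CPM (0.28 and 0.24), for NFAT signaling genes with scaling by protein-coding genes (-0.059) and for mature neutrophil genes with 1 library left out (-0.00818 to 0.29). Scaling by protein-coding genes also turned the sign for toll-like receptor signaling genes (-0.0072). With 1 library left out, the ranges spanned 0 for inflammasome genes (-0.068 to 0.054) and erythroid genes (-0.41 to 0.22). They did so too for megakaryocyte genes (-0.33 to 0.14) and cytosolic ribosomal protein genes (-0.016 to 0.19). The other causes were not tested. No named gene that was called changed sign, and the setting that lost most calls among the 161 named genes tested was leaving out ND ICH replicate 2, with 22. With a replicate block, 0 genes passed an adjusted p under 0.05, 2939 an unadjusted p under 0.05 and 242 the study threshold, and 1 of 3 numbers correlated best with itself. With 3 libraries a group and no stated number of animals behind an ICH library, differences smaller than the spread between libraries were not detectable.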
